A study of Homo sapiens with 6 samples.

Results

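Messenger RNA of 10 tubulin genes was followed between cultures of neural stem cells (NSC) and of embryonic stem cells (ESC). The genes were 4 for α-tubulin (TUBA1A, TUBA1B, TUBA1C and TUBA4A), 5 for β-tubulin (TUBB, TUBB2A, TUBB2B, TUBB3 and TUBB6) and 1 for γ-tubulin (TUBG1). All probes that carry 1 of these symbols were taken, 17 of the 48803 probes on the array, and 15 of the 17 gave a signal above background on all 3 arrays of at least 1 stage and were tested, among 17384 tested probes of which 1 each stands for 11002 genes. All 10 genes had a tested probe.

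The 6 Illumina Human-6 beadchip arrays of the series carried 1 culture each, an NSC and an ESC culture of each of the established human embryonic stem cell lines H1, HSF1 and HSF6. For the cultures at Rutgers the study's methods give neural induction and then upkeep of NSC with bFGF. For the HSF lines they refer to earlier work and give no steps. ESC cultures were the undifferentiated state of the same line. H1 was grown without feeder cells at Rutgers, whereas the culture and differentiation of the HSF lines took place at UCLA. Line, site of culture and differentiation protocol therefore cannot be told apart between H1 and the HSF lines. The study's methods also state that H1 had gained parts of chromosomes 12 and 17. The fluorescence signal of a probe is given in the deposited linear units, in which 127 was the estimated level of an empty probe and 145 the limit above which a probe counted as detected. A difference is always NSC minus ESC on the log2 scale after background correction.

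Microtubules are polymers of α- and β-tubulin heterodimers, and each of these subunits is encoded by several genes, the isotypes, whose products differ mainly in their C-terminal tails. Neurons build their axons and dendrites from microtubules that are rich in the products of TUBA1A, TUBB2A, TUBB2B and TUBB3, the last being the β-III tubulin that the antibody TUJ1 detects, while TUBB, TUBA1B and TUBA1C are expressed in most dividing cells. γ-Tubulin is not part of the lattice but sits in the ring complex that starts new microtubules. Mutations of TUBA1A, TUBB2B and TUBB3 cause malformations of the human cortex or of the cranial nerves.

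The pluripotency markers divided the arrays as labelled, the progenitor sum did not, and 1 NSC culture stood apart. The summed signal above background of 8 pluripotency genes was 313 to 504 on the NSC arrays and 38121 to 54803 on the ESC arrays, and POU5F1 was under the detection limit on all NSC arrays. The sum of 11 neuronal genes, which include DCX, STMN2 and MAP2, was 2962 in NSC of H1, 20992 in NSC of HSF1 and 24443 in NSC of HSF6, against 1039 to 2198 on the ESC arrays. Among the 10 neuronal genes tested 5 rose, 0 fell and 5 were not called. Those not called were higher in NSC in both HSF lines and lower in NSC in H1. Their differences in H1 were -3.36 (INA), -2.95 (SYT1), -1.37 (GAP43), -0.39 (NEFM) and -0.18 (ELAVL3). Of 8 neural progenitor genes SOX1 was below the limit on all 6 arrays, and the sum over the list was 4799, 19390 and 15661 in NSC of H1, HSF1 and HSF6, against 4957 to 6899 on the ESC arrays. Among the 5 progenitor genes tested 3 rose, 0 fell and 2 were not called, NES (0.59) and SOX2 (-0.61, and -2.72 within H1). The 10 genes of fibroblasts and mesenchymal cells summed to 159942, 41064 and 72931 in NSC of H1, HSF1 and HSF6, against 7683 to 18405 on the ESC arrays. Of these 10 genes 7 rose, 0 fell and 3 were not called. Among those not called, TAGLN was lower in NSC in all 3 lines (-0.99, limma adjusted p = 0.192). THY1 was lower in NSC in HSF1 and HSF6 and higher in H1 (-0.52 over the 3 lines, limma adjusted p = 0.675). ACTA2, a smooth muscle actin, rose in NSC 12.4-fold (limma, adjusted p = 0.00739). COL1A1 reached 32173 in H1 NSC and 2925 and 7920 in HSF1 and HSF6 NSC, against 438 to 1434 on the ESC arrays. The H1 NSC culture thus had the lowest neuronal and progenitor sums and the highest mesenchymal sum of the 3 NSC cultures. Its progenitor sum (4799) also lay below that of every ESC array, so that this list does not bear out its NSC label. Differences of the tubulin genes that leaving out the H1 arrays moved are therefore also given without them. Leaving out the NSC culture with the lowest neuronal sum favours a rise of neuronal genes among the rest. In cultures of mixed cells, fewer cells of a type and less RNA per cell cannot be told apart.

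Promoter sequences are shown for 4 members whose stage differences the results turn on. They are TUBA4A, the 1 gene called over all lines, TUBB3 and TUBB2B, whose H1 arrays went against the other lines, and TUBB2A, the near-identical paralog of TUBB2B on the same chromosome and strand. Each is 300 bases from RefSeq on GRCh38.p14, 250 before and 50 after the transcription start, written 5′ to 3′ along the gene. Capitals mark 4 motifs on either strand, with no overlap between different ones. The core of the TATA box was searched as TATAA. The CCAAT box was searched by the letters of its name. The GC box was searched as GGGCGG. The core of the cyclic AMP response element was searched as TGACGT.
TUBA4A (chr2:219253869-219254168, strand minus): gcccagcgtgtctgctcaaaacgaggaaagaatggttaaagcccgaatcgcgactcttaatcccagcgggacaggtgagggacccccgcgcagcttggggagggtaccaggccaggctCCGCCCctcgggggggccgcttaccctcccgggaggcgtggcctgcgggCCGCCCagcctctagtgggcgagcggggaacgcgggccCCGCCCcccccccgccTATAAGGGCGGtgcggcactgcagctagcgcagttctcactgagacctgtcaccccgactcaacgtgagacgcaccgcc
TUBB2A (chr6:3157495-3157794, strand minus): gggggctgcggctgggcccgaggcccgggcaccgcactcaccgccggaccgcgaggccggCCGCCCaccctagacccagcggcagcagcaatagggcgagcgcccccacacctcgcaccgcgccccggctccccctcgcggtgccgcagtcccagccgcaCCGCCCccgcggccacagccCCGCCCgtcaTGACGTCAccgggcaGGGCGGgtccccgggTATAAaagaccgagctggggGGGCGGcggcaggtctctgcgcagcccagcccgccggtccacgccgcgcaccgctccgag
TUBB2B (chr6:3227604-3227903, strand minus): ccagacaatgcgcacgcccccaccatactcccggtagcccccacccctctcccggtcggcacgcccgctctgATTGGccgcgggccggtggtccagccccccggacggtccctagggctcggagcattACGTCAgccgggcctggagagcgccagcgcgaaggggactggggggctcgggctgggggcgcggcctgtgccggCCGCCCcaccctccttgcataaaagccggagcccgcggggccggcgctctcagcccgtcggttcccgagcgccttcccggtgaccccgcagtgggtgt
TUBB3 (chr16:89923092-89923391, strand plus): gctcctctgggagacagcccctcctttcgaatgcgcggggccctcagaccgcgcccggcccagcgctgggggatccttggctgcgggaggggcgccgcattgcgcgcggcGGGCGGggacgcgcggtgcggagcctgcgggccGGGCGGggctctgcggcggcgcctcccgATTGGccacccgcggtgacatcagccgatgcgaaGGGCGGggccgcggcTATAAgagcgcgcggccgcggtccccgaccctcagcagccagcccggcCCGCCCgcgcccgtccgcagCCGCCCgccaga
The TUBB3 sequence belongs to the last of 2 listed starts. A TATAA in the sense of the gene lay 29 bases before the start in TUBA4A and 30 bases before it in TUBB2A and in TUBB3, and TUBA1C had one 31 bases before the last of its 3 listed starts. These were 4 of the 15 starts listed for the 10 genes, whereas 4.1% of the 34943 listed human promoters hold a sense TATAA between 45 and 16 bases before the start. On either strand and at any position of the same window, 20.5% of all promoters hold the TATA box core, 34.6% the CCAAT box, 44.9% the GC box and 7.97% the cyclic AMP response element core. The last was found at TUBB2A, where it is part of a palindrome that matches on both strands, and at TUBB2B. The 4 genes with a TATAA did not move alike: TUBA4A was lower in NSC, TUBB3 was higher in NSC of HSF1 and HSF6 alone, and TUBA1C and TUBB2A were not called. A match to these letters is a description of the sequence, and no binding was measured.

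Over the 3 lines 1 of the 10 tubulin genes was called between NSC and ESC. Called genes had a Benjamini-Hochberg adjusted p under 0.05 over all tested probes in limma and a difference of at least 1.5-fold. By this rule 1 of the 10 genes fell in NSC (TUBA4A), 0 rose and 9 were not called, while 23.8% of all 11002 genes were called, 11.4% higher and 12.4% lower in NSC. With 10 genes this count is too small to set the family apart from that share. A further probe of TUBG1 passed the rule as well. Without the detection filter 0 of the 10 genes were called. By the brightest probe of each gene TUBA4A was also the only member with an unadjusted p under 0.05, while the further probes of TUBG1 and TUBA1A were under it as well. The median difference was -0.39 over the 10 genes and -0.06 over all genes, and within lines the median of the 10 was -0.96 (H1), 0.02 (HSF1) and -0.30 (HSF6). TUBA1A, TUBA1C, TUBA4A and TUBB2A had the same sign in all 3 lines, 4 of 10 genes against 63.5% of all genes. By the brightest probes the signals of the 2 stages did not overlap for TUBA4A alone, while 45.7% of all genes showed no overlap. The further TUBG1 probe showed none either.

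**Figure D1:**
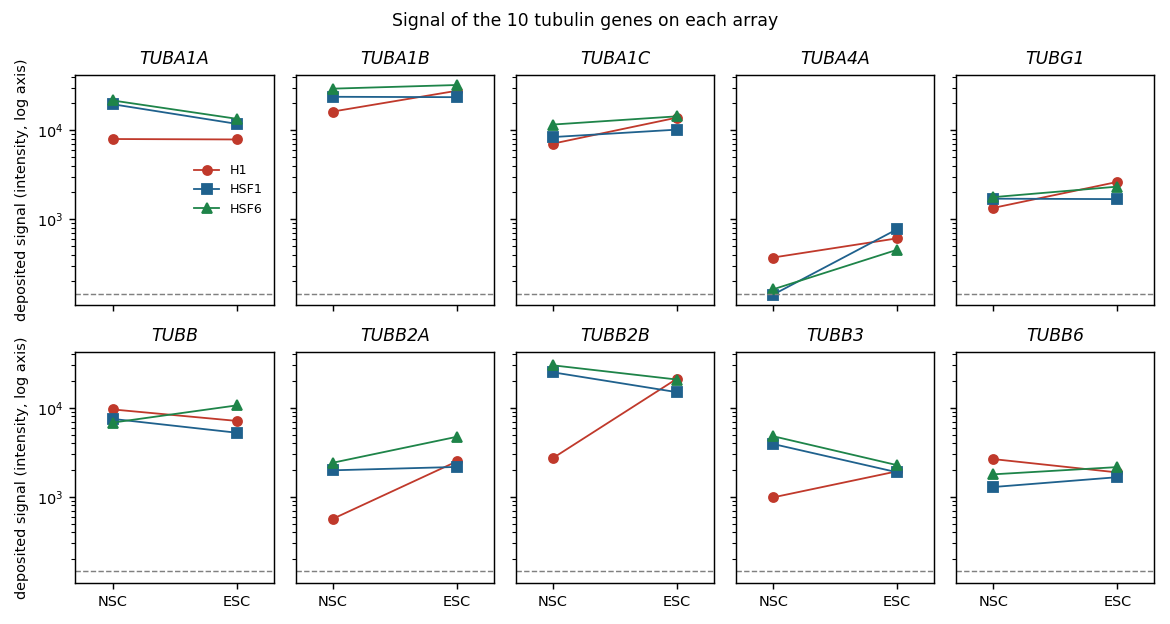
Deposited signal (linear intensity, log axis) of 1 probe of each of the 10 tubulin genes on the NSC arrays (left) and ESC arrays (right), with a line joining both arrays of a cell line and the detection limit of 145 dashed. TUBA4A was lower in NSC in all 3 lines, while the H1 line runs against HSF1 and HSF6 for TUBB2B, TUBB3 and TUBB6.

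Of the α-tubulin genes, TUBA1B and TUBA1C were bright on all 6 arrays and were not called between stages. TUBA1B, an isotype of dividing cells, gave 16197, 23724 and 29284 in NSC of H1, HSF1 and HSF6, against 27722, 23493 and 32173 in ESC of these lines. The stages overlapped and the difference was -0.30 ± 0.30 (SE, n = 3 arrays each; limma, adjusted p = 0.492). TUBA1C, which also lies on chromosome 12, gave 7063, 8370 and 11572 in H1, HSF1 and HSF6 NSC, against 13832, 10143 and 14307 in the ESC of the same lines. It was lower in NSC in each line, by a difference of -0.52 ± 0.29 (limma, adjusted p = 0.228), and was not called. Without both H1 arrays the differences were -0.06 for TUBA1B and -0.29 for TUBA1C.

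TUBA1A, the α isotype of postmitotic neurons, was higher in HSF1 and HSF6 NSC and about level in H1. Its brighter probe gave 7957, 19575 and 21573 in NSC of H1, HSF1 and HSF6, against 7866, 11784 and 13435 in the ESC of the same lines. Both H1 arrays lay under all others. The difference was 0.48 ± 0.44 (SE, n = 3 each; limma, adjusted p = 0.45). A further probe of the gene gave 5498, 11025 and 12981 in H1, HSF1 and HSF6 NSC, against 4282, 3627 and 5626 in ESC, a difference of 1.08 ± 0.38 with an adjusted p of 0.0822 in limma. Without the H1 arrays the further probe was called at 1.43 ± 0.31 (n = 2 each; limma, adjusted p = 0.0284) and the brighter one was not, at 0.71 with an adjusted p of 0.0862.

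TUBA4A, an α isotype known from brain, muscle and platelets and mutated in some families with amyotrophic lateral sclerosis, fell in NSC. Its signal was 371, 142 and 163 in NSC of H1, HSF1 and HSF6, against 609, 771 and 453 in ESC of these lines. Every NSC array lay below every ESC array, and HSF1 NSC lay under the detection limit. The fitted difference was -2.66 ± 0.73 (SE, n = 3 each; limma, adjusted p = 0.0389). The gene passed the detection filter through its ESC arrays alone, the stage where it was higher. Without that filter it was not called (limma, adjusted p = 0.139). With the array under the limit raised to the lowest detected signal, NSC was at least 6.19-fold lower than ESC under this background correction. By line the difference was -0.94 in H1, at least 18.7-fold lower in HSF1 and -2.73 in HSF6. Near the background these sizes depend on its correction, and without it the difference was -1.54 (adjusted p = 0.0471) and with an offset of 50 it was -2.12 (adjusted p = 0.0424). The difference between H1 and the HSF lines was 2.58 ± 0.72 (limma interaction, adjusted p = 0.192), and 1.24 without background correction. Without the H1 arrays the gene was called at -3.52 ± 0.41 (adjusted p = 0.00637 in limma). The call was lost on leaving out any 1 of the arrays other than H1 NSC, with adjusted p of 0.0727 to 0.115 in limma.

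Of the β-tubulin genes none was called over the 3 lines, and TUBB2B and TUBB3 ran in opposite directions in H1 and in the HSF lines. TUBB2B, an isotype of migrating and growing neurons, gave 2729, 25056 and 30019 in NSC of H1, HSF1 and HSF6, against 21217, 14992 and 20790 in ESC of these lines. The NSC arrays thus held both the lowest and the highest values. Over all lines the difference was -0.58 ± 0.87 (SE, n = 3 each; limma, adjusted p = 0.651), and by line it was -3.01 (H1), 0.75 (HSF1) and 0.53 (HSF6). The difference of the NSC effect in H1 minus that in the HSF lines was -3.65 ± 0.49, with an unadjusted p of 0.000404 and an adjusted p of 0.0621 in limma, so that it was not called. This test takes its spread from HSF1 and HSF6, since there is 1 H1 array for each stage. Over all genes 0.3% were called in it, and 0 of the 10 tubulin genes, of which TUBB2B, TUBB3 and TUBA4A had an unadjusted p under 0.05.

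TUBB3, the β isotype that marks neurons, gave 986, 3922 and 4798 in NSC of H1, HSF1 and HSF6, against 1935, 1888 and 2270 in ESC of these lines. The signal was well above the detection limit in all ESC cultures and close between lines there, whereas H1 NSC was the lowest of all 6 arrays. NSC was 2.14-fold ESC in HSF1, 2.17-fold in HSF6 and 0.48-fold in H1. Over all lines the difference was 0.39 ± 0.60 (SE, n = 3 each; limma, adjusted p = 0.664). In HSF1 and HSF6 alone TUBB3 rose in NSC by 1.11 ± 0.26, or 2.16-fold (n = 2 each; limma, adjusted p = 0.0352). In that fit 2 of the 10 tubulin genes were called, TUBB3 (12.7% of all genes were called higher in NSC) and TUBA4A (13.1% lower), against 25.8% of all genes and 24% of all probes in either direction. The fit leaves out the NSC culture with the lowest neuronal sum, which favours a rise of a neuronal gene such as TUBB3. The difference of the NSC effect in H1 was -2.17 ± 0.46 (limma interaction, adjusted p = 0.129). TUBB2B was not called in HSF1 and HSF6 alone, at 0.64 with an adjusted p of 0.15 in limma. Both genes were higher in NSC in HSF1 and HSF6 and lower in H1, a pattern that 7.74% of all genes share. The neuronal sums of the 3 NSC cultures stood in the same order as their TUBB3 signals, and the mesenchymal sum was highest where TUBB3 was lowest. Within H1 the neuronal sum was 2962 in NSC and 2198 in ESC, and TUBB3 was lower in NSC. Of the 10 neuronal genes tested, the 5 not called were also lower in H1 NSC, and the 5 called were higher there. The part of neuronal or mesenchymal cells in the TUBB3 result was not tested.

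**Figure D2:**
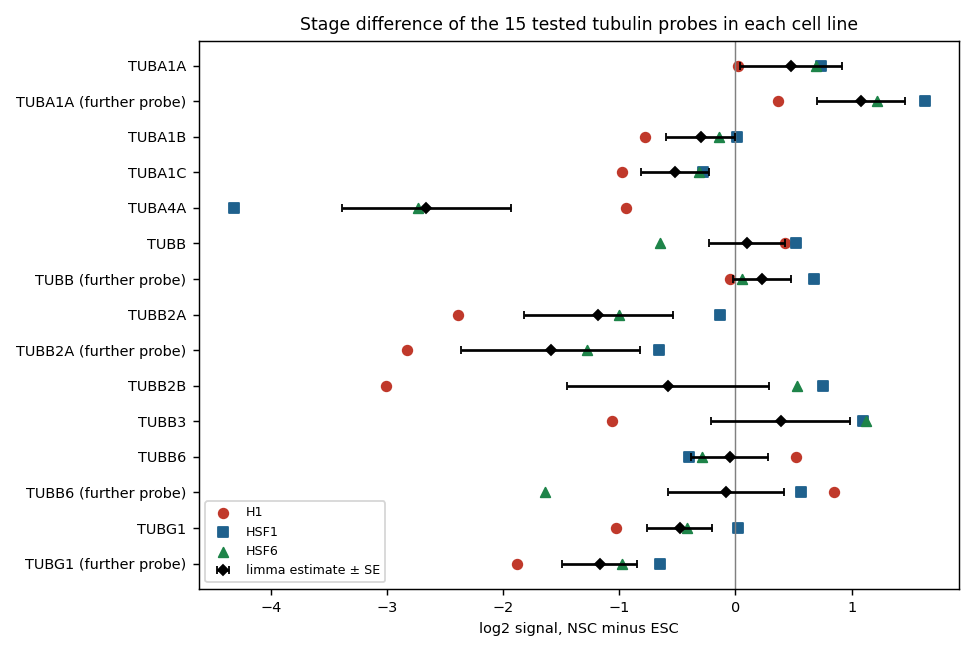
Difference of log2 signal, NSC minus ESC, of the 15 tested tubulin probes, with coloured symbols for the difference in each cell line and black diamonds with bars for the limma estimate ± SE over 3 arrays of each stage. H1 lies at -3.01 for TUBB2B and -1.06 for TUBB3, while HSF1 and HSF6 lie above 0 for both, and the HSF1 point of TUBA4A rests on an NSC signal under the detection limit.

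TUBB2A, a β isotype of the brain, was lower in NSC in all 3 lines without passing the test. Its brighter probe gave 566, 1986 and 2416 in NSC of H1, HSF1 and HSF6, against 2497, 2167 and 4725 in the ESC of the same lines. The difference was -1.18 ± 0.64 (SE, n = 3 each; limma, adjusted p = 0.219). The further probe gave 218, 686 and 940 in NSC of H1, HSF1 and HSF6, against 869, 1016 and 2127 in ESC, a difference of -1.59 ± 0.77 (limma, adjusted p = 0.175). Both probes were lowest in H1 NSC, as was that of TUBB2B. The size rests on that culture: without both H1 arrays the differences were -0.57 on the brighter probe and -0.97 on the further one (n = 2 each; limma adjusted p of 0.356 and 0.16), and without H1 NSC alone they were -0.44 and -0.69.

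TUBB, the β isotype of most cell types, showed no difference beyond the spread of the cultures. It gave 9595, 7508 and 6823 in H1, HSF1 and HSF6 NSC, against 7131, 5253 and 10641 in ESC, and the difference was 0.10 ± 0.33 (SE, n = 3 each; limma, adjusted p = 0.839). H1 NSC, the lowest array for TUBB2A, TUBB2B and TUBB3, was the highest NSC array for TUBB. A further probe gave 3715, 4700 and 4203 in NSC, against 3835, 2981 and 4033 in ESC (difference 0.23, limma adjusted p = 0.529), with H1 lowest of the NSC arrays there, so that the probes of TUBB order the NSC cultures differently.

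TUBB6, a widely expressed β isotype known from regenerating muscle, was highest in H1 NSC. It gave 2654, 1289 and 1790 in NSC of H1, HSF1 and HSF6, against 1881, 1662 and 2158 in the ESC of the same lines. The difference was -0.05 ± 0.33 (SE, n = 3 each; limma, adjusted p = 0.921), and without both H1 arrays it was -0.34 (adjusted p = 0.43). By its brighter probe TUBB6 was the 1 member that was higher in NSC in H1 and lower in NSC in both HSF lines, as were 9.46% of all genes. The culture with the highest TUBB6 signal was also the one with the highest mesenchymal sum, and the part of such cells in the result was not tested. A further probe near the detection limit gave 195, 167 and 151 in NSC, against 158, 148 and 236 in ESC (difference -0.08, limma adjusted p = 0.926). There HSF1 was higher in NSC as well (0.56), so that the probes of TUBB6 differ in the direction of HSF1.

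TUBG1, the main γ-tubulin, was lower in NSC on 1 of its 2 tested probes by the call. The brighter probe gave 1339, 1700 and 1769 in H1, HSF1 and HSF6 NSC, against 2621, 1681 and 2321 in ESC, a difference of -0.48 ± 0.28 (SE, n = 3 each; limma, adjusted p = 0.252). The further probe gave 426, 475 and 536 in NSC, against 1269, 682 and 952 in ESC, and there all NSC arrays lay below all ESC arrays. It fell by 1.17 ± 0.32 on the log2 scale (limma, adjusted p = 0.0389), a call that was lost with the cell line as a block (adjusted p = 0.0531) and in 11 of the 16 alternative settings in all. Without both H1 arrays the differences were -0.20 and -0.82, neither of them called. The other 2 probes of TUBG1 were not above the limit on all arrays of a stage. The sum of 12 genes of dividing cells was 11210, 15937 and 11499 in H1, HSF1 and HSF6 NSC, against 19466, 18610 and 22125 in ESC. It was lower in NSC in each line, and its part in the TUBG1 result was not tested. Of the 12 genes 1 rose, 5 fell and 6 were not called. The one that rose was CENPF, a kinetochore protein, by 1.17 ± 0.27 (limma, adjusted p = 0.0239), and MKI67 was at 1.20 ± 0.45 (adjusted p = 0.0932).

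The members on the chromosomes with a stated gain in H1 were set side by side in ESC. H1 ESC minus the mean of HSF1 and HSF6 ESC was -0.69 for TUBA1A (-0.08 on its further probe), 0.01 for TUBA1B and 0.20 for TUBA1C, all on chromosome 12, and 0.43 for TUBG1 (0.74 on its further probe) on chromosome 17. With 1 H1 array of each stage these differences have no replicate check, and whether the gained parts include these genes is not given in the sources used here.

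Shares of isotypes were then computed as the percent that each gene's brightest probe took of the background-corrected signal summed over the 4 α or the 5 β genes. Probes differ in how brightly they report a transcript, and tubulin genes are alike in their coding sequences, so that a share is one of signal and not of molecules, and some signal may come from a paralog. The comparison of shares between stages uses the same probes on every array. With 3 arrays against 3, an exact permutation test cannot give a p below 0.1.

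Among the β-tubulin probes, TUBB2A had a smaller share in NSC in every line and TUBB3 a larger one in HSF1 and HSF6. TUBB2A took 2.76%, 4.75% and 5.06% in NSC of H1, HSF1 and HSF6, against 6.96%, 8.05% and 11.5% in the ESC of the same lines. All NSC shares lay below all ESC shares, with a mean difference of -4.65 percentage points and the smallest p the design allows (0.1, two-sided exact permutation test). TUBB3 took 5.4%, 9.7% and 10.3% in NSC of H1, HSF1 and HSF6, against 5.31%, 6.95% and 5.36% in ESC. The means were 8.48 ± 2.68% in NSC and 5.88 ± 0.932% in ESC (SD, n = 3 each; exact permutation p = 0.2), and the difference was 2.75 points in HSF1, 4.97 in HSF6 and 0.092 in H1. The H1 share of TUBB3 thus was level between stages while its signal was lower in NSC, and the summed β signal of H1 NSC was 0.467 of that of H1 ESC.

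TUBB2B took most of the β signal on 5 of the 6 arrays. Its share was 16.4%, 63.7% and 66.1% in NSC of H1, HSF1 and HSF6, against 62.0%, 58.7% and 51.7% in ESC. H1 NSC was the exception, where TUBB took 59.6% of the signal, against 18.9% in HSF1 NSC and 14.8% in HSF6 NSC and 20.6%, 20.2% and 26.3% in the ESC of H1, HSF1 and HSF6. TUBB6 took 15.9%, 2.97% and 3.68% in NSC of H1, HSF1 and HSF6, against 5.15%, 6.06% and 5.08% in ESC. Its mean difference was 2.08 points (exact permutation p = 1), which became -2.25 points without the H1 arrays. The shares of TUBB and TUBB2B likewise changed sign without H1, TUBB at 8.7 points with it and -6.44 without and TUBB2B at -8.73 with it and 9.71 without.

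**Figure D3:**
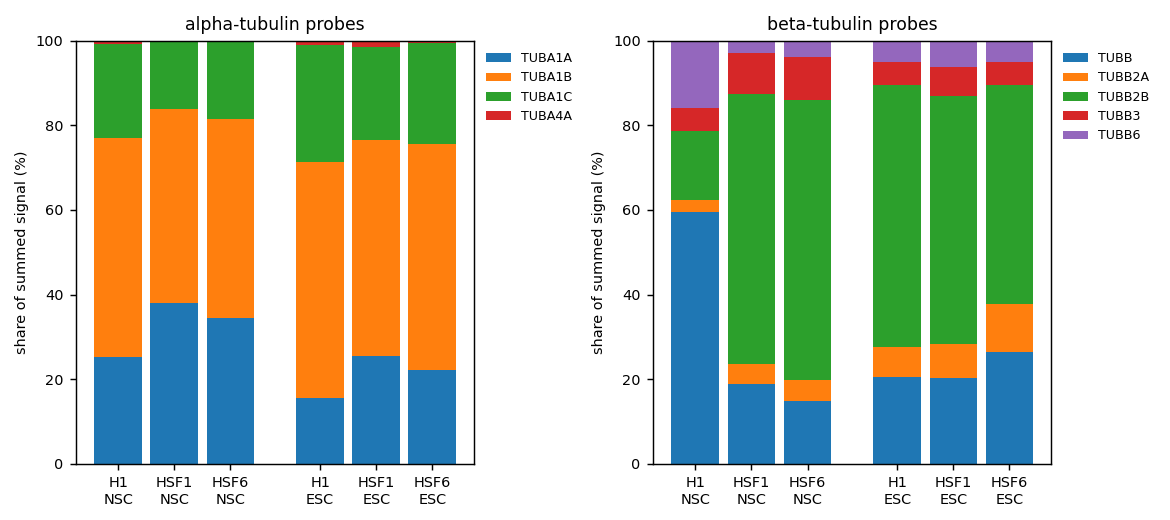
Share (%) of each gene in the summed background-corrected signal of the α-tubulin probes (left panel) and β-tubulin probes (right panel), with 1 stacked bar for each array and the NSC arrays left of the ESC arrays. TUBB2B is the largest β share on all arrays but H1 NSC, where TUBB holds 59.6%.

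Among the α-tubulin probes the shares differed between stages in the same direction in all 3 lines. The permutation test could not call them, since its p cannot go below 0.1. TUBA1A took 25.2%, 37.9% and 34.5% in NSC of H1, HSF1 and HSF6, against 15.6%, 25.5% and 22.2% in ESC. Its mean was 32.5 ± 6.59% in NSC and 21.1 ± 5.04% in ESC (SD, n = 3 each; exact permutation p = 0.2), and the difference was 9.57 points in H1, 12.4 in HSF1 and 12.3 in HSF6. Summed over the 7 α genes with a signal above the limit, which include the bright TUBA3FP probe, the mean difference was 6.55 points (exact permutation p = 0.1), against 11.4 points over the 4. H1 had the lowest TUBA1A share at both stages, and the shares of the stages overlapped across lines. TUBA1B took 51.7%, 46.0% and 47.0% in H1, HSF1 and HSF6 NSC, against 55.7%, 51.1% and 53.5% in ESC. TUBA1C took 22.3%, 16.1% and 18.4% in NSC, against 27.7%, 21.9% and 23.7% in ESC. Both were lower in NSC in each line, with mean differences of -5.25 points for TUBA1B and -5.49 points for TUBA1C (exact permutation p = 0.2 each). With all probes of each gene summed, TUBA1A was at 16.3 points, TUBA1B at -9.01 and TUBA1C at -6.68 (exact permutation p = 0.1 each). TUBA4A took 0.784%, 0.033% and 0.0574% in NSC, against 0.973%, 1.41% and 0.544% in ESC.

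The summed signal of neither family differed between the stages beyond the spread of the lines. The β sum was 15893, 39124 and 45209 in NSC of H1, HSF1 and HSF6, against 34024, 25325 and 39948 in ESC, a ratio of the means of 1.01, which was 1.27 without H1 NSC. The α sum was 31078, 51304 and 62083 in NSC, against 49519, 45681 and 59858 in ESC, a ratio of 0.932. By line the NSC over ESC ratio was 0.467, 1.54 and 1.13 for β and 0.628, 1.12 and 1.04 for α in H1, HSF1 and HSF6. H1 was below 1 and both HSF lines above 1 in both families.

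Of the 16 other tubulin genes looked for, 12 had a probe and 7 a tested one. The pseudogene TUBA3FP, whose value is given as well, is not among the 16. TUBG2, the second γ-tubulin gene, rose in NSC by 0.84 ± 0.25 (limma, adjusted p = 0.0487), a call lost with the cell line as a block (adjusted p = 0.0754) and without both H1 arrays (adjusted p = 0.08). TUBA3D, an α isotype of testis, fell by 1.69 ± 0.32 on the log2 scale (adjusted p = 0.0126 in limma), with 315, 430 and 528 in H1, HSF1 and HSF6 NSC, against 1018, 1009 and 1230 in ESC. TUBD1 and TUBE1, the δ- and ε-tubulins of centrioles, had differences of -1.21 (limma adjusted p = 0.0754) and 0.24 (0.606). TUBB4B, an isotype of cilia, had -0.35 (0.367), TUBB4A, that of myelinating cells, -0.95 (0.323), TUBA3E -0.30 (0.578) and the pseudogene TUBA3FP 0.40 (0.494), all limma adjusted p. The TUBA3FP probe was bright, at 13879 to 28631 in NSC and 11259 to 24593 in ESC, and which transcript it reports cannot be told from a probe name. TUBA4B, TUBA8, TUBAL3, TUBB1 and TUBB8 were not tested, since their probes were not above the limit on all arrays of a stage.

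The proteins that bind, modify or fold tubulin were taken from lists of their own. Of 29 tested genes for microtubule-associated and destabilizing proteins, 10 rose and 2 fell in NSC, with a median of 0.68, beside 11.4% higher, 12.4% lower and a median of -0.06 over all genes. Without both H1 arrays 14 rose and 1 fell, beside 12.7% and 13.1% of all genes. STMN2, a neuronal stathmin that sequesters tubulin dimers, rose by 4.47 ± 0.65 (limma, adjusted p = 0.00568), with 1460, 8177 and 6959 in NSC of H1, HSF1 and HSF6, against 273, 300 and 338 in ESC. MAP6, which stabilizes neuronal microtubules and was detected on 1 of 3 ESC arrays, rose by 4.32 ± 1.16 (adjusted p = 0.0371 in limma; at least 18.7-fold), and DCX, the doublecortin of migrating neurons, by 3.62 ± 0.71 (adjusted p = 0.014 in limma). The difference within H1 was the smallest of the 3 lines for each, at 3.06 for STMN2, 1.33 for MAP6 and 2.22 for DCX. The NSC effect in H1 minus that in the HSF lines was called for MAP6, at -4.48 (limma interaction, adjusted p = 0.0398), and was not called for STMN2 (-2.11, adjusted p = 0.129) or DCX (-2.10, adjusted p = 0.291). MAP7, which recruits kinesin-1 and was detected on 2 of 3 NSC arrays, fell by 3.16 ± 0.84 on the log2 scale (at least 8.25-fold), and MAP1S by 0.99 ± 0.22 (limma adjusted p of 0.0359 and 0.0218). MAP7 was not called without both H1 arrays (-2.44, adjusted p = 0.0659). MAP2, the dendritic microtubule protein, was under the limit on all ESC arrays, and its NSC signal was higher by at least 7.61-fold (limma, adjusted p = 0.0112). The bounds given for MAP6, MAP7 and MAP2 hold under the background correction used here. MAP6 and MAP2 passed the detection filter through their NSC arrays alone, and MAP7 through its ESC arrays alone. For such genes the filter favours the direction found, so that their p-values are no separate support. The counts of the list include such genes. STMN2, DCX and MAP2 also stand in the neuronal list.

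Of 14 tested genes for tubulin modifying enzymes, 4 rose and 3 fell in NSC, with a median of 0.25, beside 11.4% higher and 12.4% lower over all genes. VASH1, a tubulin tyrosine carboxypeptidase, rose by 2.75 ± 0.46, ATAT1, the acetyltransferase of α-tubulin, by 2.35 ± 0.56, and TTLL7, a polyglutamylase of β-tubulin detected on 1 of 3 ESC arrays, by 2.26 ± 0.51 (limma adjusted p of 0.00857, 0.0261 and 0.0218). TTLL7 passed the filter through its NSC arrays alone, which favours a rise, and its bound was at least 4.01-fold under this background correction. Within H1 the difference was the smallest of the lines for ATAT1 (0.99) and TTLL7 (0.49) and the largest for VASH1 (4.14). The interaction was called for none of them (limma adjusted p of 0.172, 0.0804 and 0.191). VASH2, the paralog of VASH1, fell by 1.80 ± 0.34 on the log2 scale, TTLL12 by 1.56 ± 0.22 and TTLL4, another polyglutamylase, by 1.21 ± 0.29 (limma adjusted p of 0.0126, 0.00548 and 0.0257). The 2 vasohibins thus changed in opposite directions, and they did so in each line.

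Of 14 tested genes of tubulin folding, 0 rose and 4 fell in NSC, with a median of -0.22, beside 12.4% of all genes lower. With the cell line as a block 2 fell, and without both H1 arrays 1 fell, and none of the 3 named next was called without H1. PFDN6, a subunit of prefoldin detected on 2 of 3 NSC arrays, fell by 1.39 ± 0.38 on the log2 scale, PDCL3, a phosducin-like partner of the chaperonin CCT, by 0.93 ± 0.25, and TBCE, the cofactor E that helps to form the α-β dimer, by 0.92 ± 0.23 (limma adjusted p of 0.0404, 0.0371 and 0.031). PFDN6 passed the detection filter through its ESC arrays alone, which favours a fall. Of 18 tested genes of the γ-tubulin ring complex and of nucleation, 0 rose and 2 fell, with a median of -0.09, a count near the 12.4% of all genes lower. These were HAUS6, at -1.82 ± 0.38, and HAUS7, at -0.98 ± 0.29, both subunits of augmin, which starts new microtubules on existing ones (limma adjusted p of 0.0168 and 0.048). The medians and counts of the lists are descriptions beside those of all genes.

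**Figure D4:**
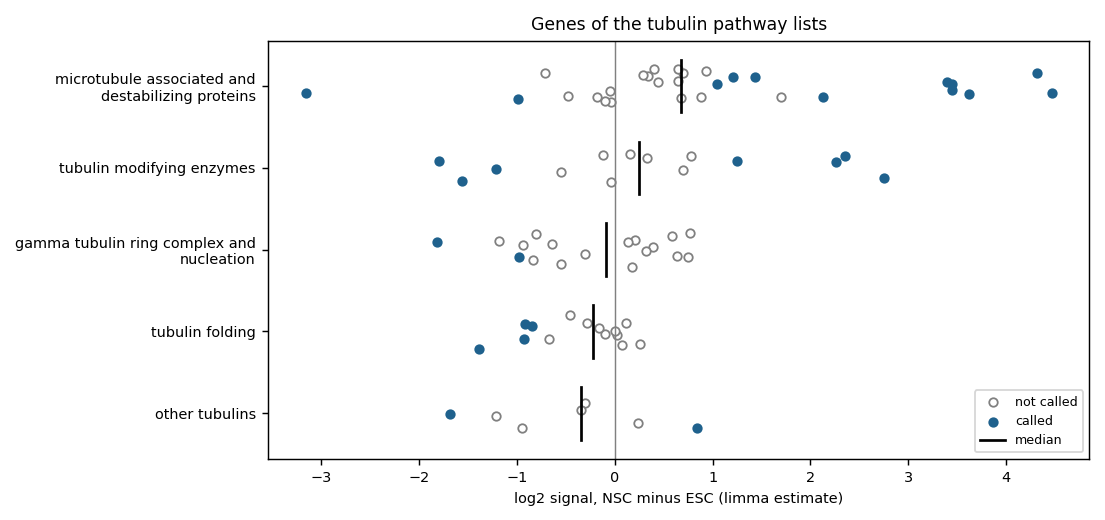
Difference of log2 signal, NSC minus ESC (limma estimate over 3 arrays of each stage), of each tested gene of 5 lists, 1 circle for each gene, filled where called, with the median of the list as a black bar. The genes for microtubule-associated and destabilizing proteins reach 4.47 (STMN2) and hold 10 of the filled circles above 0.

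The genes whose log2 signals over the 6 arrays were most like those of TUBB3, among 11001 others, were REEP2, ERC2, ATP6V1A and INPP5D, with a Pearson r of 0.9928, 0.9926, 0.9884 and 0.9861, and 32 genes passed 0.95. For TUBB6 they were CNOT2, STN1, ASCC2 and GPX7, with 0.9868, 0.9828, 0.9798 and 0.9782, and 13 genes passed 0.95. The 6 points share their cell lines and stages, and with so few of them a high r arises among many genes, so that these names are a description.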

How the data were processed

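Messenger RNA was measured on 6 arrays, 3 of NSC and 3 of ESC, grouped by the stage in the sample labels. The deposited intensity values had been summarised per probe by the authors in BeadStudio, with no version given. They are linear and quantile normalized across the arrays (sorted signals differ by at most 0.407), with no background subtracted, and run between 82.3 and 52384 with a median of 137. The 24 columns of unnormalized values, named by chip, matched no sample label and were not used.

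The background level was taken as the mode of signals below 300.0 (127, SD 11.2), and normexp correction with an offset of 16 was applied before log2. A probe was tested above 145, the 95% point of background, on all 3 arrays of at least 1 stage. Of 48803 probes, 27578 matched 1 gene symbol, 13 several and 21212 none, in the platform annotation updated through GRCh38.p14. A gene stands by its brightest tested probe (2560 genes had several), and all probes of the members are given. R 4.3.3, limma 3.58.1, the data.table package at version 1.17.8, Python 3.11.15, pandas 2.3.3 and matplotlib 3.10.9 were used. The stages were compared in limma (lmFit, eBayes) with no covariate and with Benjamini-Hochberg adjustment over the 17384 tested probes. The interaction of stage with H1 was fitted the same way. The step was tested on simulated data. Probes called numbered 3861 (22.2%).

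Both stages of a line come from the same cell line, which pairs them, and their deviations from the stage means correlated at 0.17 (H1), 0.22 (HSF1) and 0.10 (HSF6). The smallest two-sided p of the exact permutation test of a share was 0.1. With 1 culture of each line and stage, the number of arrays limits the precision. Alternatives were no background correction, the offset, the detection limit, the detection filter, the cell line as a block, the t-test of the study's methods, the family behind the shares, and leaving out arrays or lines.

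The members and gene lists were chosen with earlier results of these data known. Named genes were the members, every other tubulin gene with a tested probe, the 3 called genes of each list with the largest change in each direction, 7 marker genes, and the 4 genes most like TUBB3 and TUBB6. Other tubulins listed as not tested, TUBA3FP, CENPF, TAGLN and THY1 were named after their values were seen. So were INA, SYT1, GAP43, NEFM, ELAVL3, NES and SOX2. The bounds, the list counts with the block or without H1, and the alternatives of the further probes, of single interactions and of the shares other than TUBB3, TUBB6 and TUBA1A were chosen after seeing the data. Promoters were RefSeq sequences of GRCh38.p14, matched by symbol for all 10 genes.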

Additional observations from a re-analysis of the deposited data

How the results depend on the processing

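The count of 1 called tubulin gene became 0 without a detection filter and 0 with the methods' t-test, which called 1505 probes against 3861. It became 2 without both H1 arrays, and 0 without both HSF1 arrays (397 probes called) or both HSF6 arrays (627 probes called). Leaving out 1 array at a time gave 0 to 2 tubulin genes and 1563 to 4034 probes. The call of TUBB3 was added without H1 NSC (1.14, limma adjusted p = 0.0237). TUBA4A kept its direction in all settings, with an adjusted p of 0.139 in limma without the filter and of 0.147 in the methods' t-test. With the cell line as a replicate block 3951 probes and 1 tubulin gene were called, and among the 15 tubulin probes the block changed the call of the further TUBG1 probe alone. Of the 18 genes named from the lists it lost 2, TUBG2 (limma adjusted p = 0.0754) and PDCL3 (0.0533), and the folding genes called lower numbered 2. The differences that changed sign on leaving out a line were those of TUBB (-0.06 without both H1 arrays, -0.11 without both HSF1 arrays), TUBB2B (0.64 without H1), TUBB6 (0.12 without HSF1, 0.06 without HSF6) and the further TUBB6 probe (0.71 without HSF6). Leaving out 1 array changed the sign of these and of TUBB3 (-0.07 without HSF6 NSC), with ranges of -0.14 to 0.37 for TUBB, -1.21 to 0.55 for TUBB2B, -0.07 to 1.14 for TUBB3, -0.34 to 0.22 for TUBB6 and -0.41 to 0.45 for its further probe. Without both H1 arrays the shares of TUBB6, TUBB and TUBB2B differed by -2.25, -6.44 and 9.71 percentage points. Leaving out 1 array gave -2.11 to 4.35 points for TUBB6, -5.54 to 16.8 for TUBB and -17.4 to 7.45 for TUBB2B. The other shares kept their direction in every setting run, TUBB3 at 1.68 to 4.14 points, TUBA1A at 8.67 to 15.1 and TUBB2A at -5.59 to -3.32 with 1 array left out. No tubulin gene was called in the interaction in any setting that could be fitted, and those without an H1 array could not be. Settings with fewer arrays have fewer degrees of freedom, and the cause of the other changes was not tested. Signals near the limit carry a log2 difference that depends on the background estimate, as given for TUBA4A.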
